A study of Mus musculus with 5 samples.

Results

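Cytochrome P450 genes (Cyp genes) encode haem monooxygenases, enzymes that use molecular oxygen and electrons from a reductase to oxidise fatty acids, sterols, hormones, drugs and other foreign compounds. They were taken as the rows of the authors' normalized gene table whose symbol begins with Cyp and a digit, which gave 98 rows. The selection left out 7 of these, which encode enzymes of vitamin D, adrenal steroid and retinoic acid metabolism, so that 91 members remained of 24562 rows with a gene symbol. The rule reads gene symbols and no measured value, but it was set with earlier results of these data known. A usable probe was found for 90 members, since the only spot of Cyp39a1 was marked as an outlier on 1 array.

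Total RNA from C57BL/6 mouse tissue was measured on 5 one-colour (Cy3) Agilent microarrays, 1 for each group. Of the 5 groups, 3 were kidneys, from the embryonic stage E13.5, from birth (P0) and from 8-week-old animals. The other two were tissue taken 2 weeks and 4 weeks after a kidney bud had been transplanted. The labels name no genotype beyond the strain and no treatment beyond the transplantation. The sources used here do not give how the buds were made, the host, the site of the graft or the number of animals behind each RNA. With 1 array a group no difference has a replicate check and no p-value is given, and every value describes single arrays. The number of arrays limits the precision. In bulk tissue, fewer cells of a type and less RNA per cell cannot be told apart.

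The number after Cyp names a family of related sequences and the letter after it a subfamily, whose genes often lie side by side in the genome. Families 1 to 3 are best known for foreign compounds, although several Cyp2c and Cyp2j enzymes turn arachidonic acid into epoxides. Family 4 hydroxylates the far end of fatty acids and eicosanoids, and the higher-numbered families act on cholesterol, bile acids, steroids and retinoic acid. In the kidney, P450 enzymes are found mainly in the proximal tubule, where their arachidonic acid products act on vessel tone and salt transport.

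A level is given here as log2 of the intensity of a gene's probe relative to the 75th percentile of its array, so that 0 marks that percentile and a difference of 1 is a factor of 2. Levels were compared only within a probe, never between genes. A probe was called well above background as the scanner software marked it. Where it was so on only 1 of the 2 arrays compared, the fold is a lower bound and is written "at least". Counts used a 4-fold difference. The comparisons share arrays and are not independent of each other. Over 399 probes with several spots, the spots of 1 array had a median SD between 0.0579 and 0.0748 on the log2 scale, an error that leaves out labelling and animals.

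Slide 1 held the arrays of the E13.5 kidney and 2-week transplant, and slide 2 held the remaining 3. Comparisons of the 2-week transplant with the E13.5 kidney, of the 8-week with the P0 kidney and of the 4-week transplant with the 8-week or the P0 kidney lie within a slide. In the others, differences of slide and of group cannot be told apart. Of the sex-linked genes, Ddx3y, Eif2s3y and Uty of the Y chromosome were not well above background on the P0 array, and Xist was not on the 8-week array, while the E13.5 and both transplant arrays carried Xist and some of the Y genes. Sex and group therefore cannot be told apart in comparisons with the P0 or the 8-week kidney. This bears on the Cyp genes because some of them, such as Cyp4a12a and Cyp2d9, are known to depend on sex hormones in mice.

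Promoter sequences were taken from RefSeq (GRCm38.p6) for the 250 bases before the transcription start. Of the 90 members 69 matched, with 78 promoters. The 7 printed here belong to genes the results turn on. Cyp2e1 (chr7:140763569-140763818, plus strand) and Cyp4a32 (chr4:115600688-115600937, plus strand) were much higher in the 8-week kidney than in the younger kidneys. Cyp2d9 (chr15:82452127-82452376, plus strand) and Cyp2d11 (chr15:82394023-82394272, minus strand) are neighbours whose differences between P0 and 8 weeks were of unlike size. Cyp2f2 (chr7:27119705-27119954, plus strand) and Cyp4f15 (chr17:32685409-32685658, plus strand) were highest in the 4-week transplant, and Cyp26a1 (chr19:37697558-37697807, plus strand) was well above background only in the younger kidneys. Each is written 5′ to 3′ on the strand of its gene, and capitals mark matches, on either strand, to 4 motifs. These are the TATA box written TATAAA, the CCAAT box, a steroid receptor motif written AGAACA, and direct repeat 5, a retinoic acid response element.
Cyp2e1: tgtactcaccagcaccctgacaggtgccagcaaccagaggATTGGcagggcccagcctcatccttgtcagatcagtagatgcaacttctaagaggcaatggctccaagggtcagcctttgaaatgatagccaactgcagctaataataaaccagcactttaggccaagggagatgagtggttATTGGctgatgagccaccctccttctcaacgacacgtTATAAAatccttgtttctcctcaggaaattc
Cyp4a32: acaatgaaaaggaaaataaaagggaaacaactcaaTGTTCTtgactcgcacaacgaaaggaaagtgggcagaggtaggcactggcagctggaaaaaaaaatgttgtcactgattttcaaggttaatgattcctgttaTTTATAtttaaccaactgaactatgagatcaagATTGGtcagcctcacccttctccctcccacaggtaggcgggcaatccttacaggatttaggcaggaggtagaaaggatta
Cyp2d9: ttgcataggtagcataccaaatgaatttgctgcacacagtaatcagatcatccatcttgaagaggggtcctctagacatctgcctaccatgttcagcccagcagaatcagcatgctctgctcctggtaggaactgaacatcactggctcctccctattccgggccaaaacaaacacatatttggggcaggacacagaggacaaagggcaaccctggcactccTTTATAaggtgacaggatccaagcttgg
Cyp2d11: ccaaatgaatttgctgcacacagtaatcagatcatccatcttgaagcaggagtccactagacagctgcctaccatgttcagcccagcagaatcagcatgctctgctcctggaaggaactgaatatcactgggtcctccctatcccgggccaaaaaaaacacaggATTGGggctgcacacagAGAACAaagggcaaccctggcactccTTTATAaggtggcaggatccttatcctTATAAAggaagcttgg
Cyp2f2: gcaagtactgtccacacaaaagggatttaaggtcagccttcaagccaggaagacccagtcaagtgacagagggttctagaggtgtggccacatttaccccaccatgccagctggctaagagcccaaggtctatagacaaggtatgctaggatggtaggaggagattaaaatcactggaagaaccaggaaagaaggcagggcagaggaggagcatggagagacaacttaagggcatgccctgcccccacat
Cyp4f15: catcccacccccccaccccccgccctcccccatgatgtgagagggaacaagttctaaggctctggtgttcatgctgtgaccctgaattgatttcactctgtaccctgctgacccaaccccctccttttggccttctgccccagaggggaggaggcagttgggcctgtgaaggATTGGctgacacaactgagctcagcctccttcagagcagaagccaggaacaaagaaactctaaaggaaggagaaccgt
Cyp26a1: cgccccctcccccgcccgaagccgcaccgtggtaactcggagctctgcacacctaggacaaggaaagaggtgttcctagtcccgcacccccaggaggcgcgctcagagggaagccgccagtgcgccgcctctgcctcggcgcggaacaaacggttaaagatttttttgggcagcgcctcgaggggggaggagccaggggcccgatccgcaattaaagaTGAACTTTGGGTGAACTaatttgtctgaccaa
In these windows Cyp2e1 held TATAAA 31 bases before the start and CCAAT at 210 and 68 bases before it. Cyp4a32 held TATAAA at 113, CCAAT at 80 and AGAACA at 215 bases before the start. The promoters of Cyp2d9 and Cyp2d11 were identical at 219 of 266 aligned positions (82.3%), and both held TATAAA, 28 bases before the start of Cyp2d9 and 43 and 16 bases before that of Cyp2d11. For comparison, Cyp2d9 and Cyp2e1 shared 48.2%. Cyp26a1 held direct repeat 5, 32 bases before the start, and in Cyp2f2 none of the 4 motifs was found. A match is a description of the letters and not evidence of binding.

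Of 9 motifs searched on both strands, TATAAA was found in 34.6% of the Cyp promoters (27 of 78) and in 12.4% of all 32851 promoters. The motif CAAAGTCCA, a core bound by HNF4, was found in 8 of 78 (10.3%), in Cyp2c65, Cyp2c67, Cyp2c68, Cyp2c70, Cyp3a11, Cyp3a16, Cyp3a41b and Cyp8b1, and in 0.384% of all promoters. CCAAT (42.3% against 33.8%) and AGAACA (21.8% against 16.1%), were common in both. Direct repeat 5 was found only in Cyp26a1 among the Cyp promoters (1.28%), and in 0.0213% of all, and TNGCGTG, the core of the Ah receptor element, only in Cyp2c68 (1.28% against 4.1%). None of the Cyp promoters held direct repeat 1 (bound by PPAR and RXR), CAAGGTCA (bound by Nr5a1) or the sterol element searched, which were found in 0.0335%, 1.33% and 0.192% of all promoters. Neighbouring Cyp genes share sequence, so these counts are not independent.

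On at least 1 array 59 of the 90 members were well above background, with 28 of them on all 5 and 31 on none. Over all genes 21.1% were on none. The number of Cyp genes well above background was 33 in the E13.5 kidney (36.7%, against 66.4% of all genes), 44 in the P0 kidney (48.9%, against 68.9%) and 52 in the 8-week kidney (57.8%, against 64.2%). It was 44 in the 2-week transplant (48.9%, against 72.5%) and 49 in the 4-week transplant (54.4%, against 72.2%). Family 2 had 32 of 46 members above background and family 4 had 17 of 22. Family 3, which holds the main drug-metabolising enzymes of the liver, had 1 of 8. Among subfamilies, all 6 Cyp2j genes, 7 of 10 Cyp2d, 9 of 13 Cyp2c, 6 of 8 Cyp4a and 8 of 10 Cyp4f genes were detected.

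**Figure D1:**
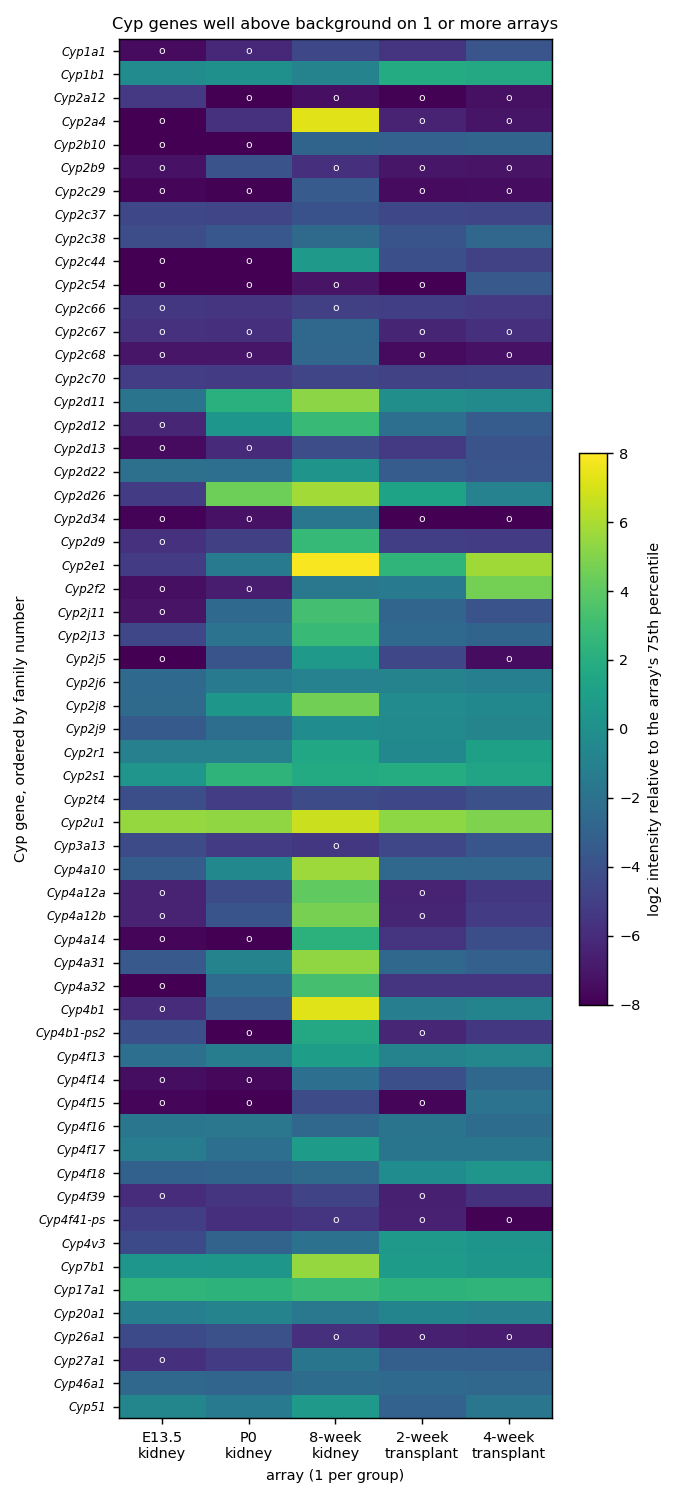
Levels of the 59 detected Cyp genes (rows, by family number) on the 5 arrays (columns, 1 array per group). Colour is log2 intensity relative to the array's 75th percentile, ends of the scale holding values beyond them, and a circle marks a probe not well above background. The 8-week kidney column holds the highest value of 40 of the rows, with 39 of them well above background there.

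The 8-week kidney had the highest level of 40 of the 59 detected Cyp genes (67.8%, against 31.9% of all genes). In 39 of them the probe was also well above background there (66.1%, against 31.1%), the exception being Cyp2c66. The 4-week transplant had that of 9 genes (15.3%, against 15.8%), the 2-week transplant and the P0 kidney that of 4 each (6.78%, against 13.7% and 7.73%), and the E13.5 kidney that of 2 (3.39%, against 30.8%). A level at least 4-fold above each of the other 4 arrays was found in the 8-week kidney for 25 genes (42.4%, against 4.57% of all genes), among them 5 of the Cyp2d, 4 of the Cyp2j and all 6 detected Cyp4a genes. It was found in the 4-week transplant for 2, Cyp2f2 and Cyp4f15 (3.39%, against 1.14%), and on the other 3 arrays for none (0.661%, 0.253% and 0.351% of all genes in the E13.5 kidney, the P0 kidney and the 2-week transplant).

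**Figure D2:**
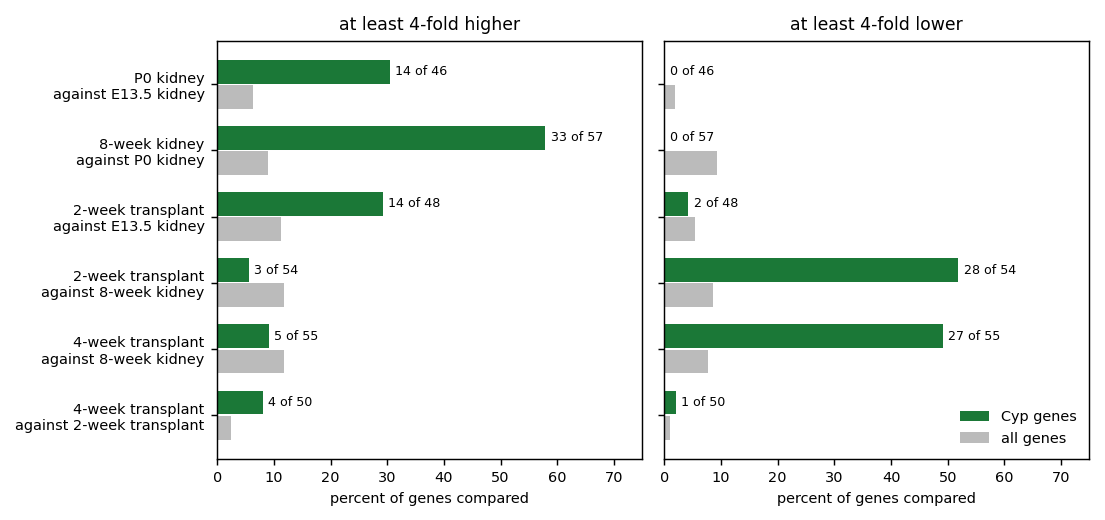
Percent of the genes compared that were at least 4-fold higher (left) or lower (right) in each comparison, for the Cyp genes (green, with counts) and for all genes (grey). Each bar compares 1 array with 1 array. The green bars are longest in the 8-week kidney against the P0 kidney (33 of 57 higher) and in the transplants against the 8-week kidney (28 of 54 and 27 of 55 lower).

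Between the E13.5 and the P0 kidney, the Cyp genes that were higher at birth were mostly of the 2d, 2j and 4a subfamilies. Of 46 genes compared, 14 were at least 4-fold higher at P0 (6.23% of all genes were) and 0 lower (1.83%). The median difference was 0.45, against -0.12 over all genes. Of family 2, 9 of 23 were higher, and of family 4, 5 of 14. The levels of Cyp2d26 were -5.23 at E13.5 and 4.44 at P0, an 814-fold difference. Cyp2d11 was at -1.86 and 2.15 (16.1-fold), while Cyp2d12 was not well above background at E13.5 and at 0.42 at P0 (at least 79.5-fold). Cyp2d22 differed little over the same interval, at -2.09 and -2.13.

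Among the arachidonic acid epoxygenases of subfamily 2j, Cyp2j8 was at -2.47 at E13.5 and 0.49 at P0 (7.77-fold higher) and Cyp2j13 at -4.57 and -1.90 (6.40-fold). A second Cyp2j13 probe, above background on all 5 arrays, gave 0.75 on the log2 scale, against 2.68 with the probe used. The third, not above background at E13.5, gave at least 2.43. Cyp2j11 and Cyp2j5, an epoxygenase abundant in the mouse kidney, became detectable at P0 at -2.56 and -3.84 (at least 10.1-fold and at least 4.16-fold). Of the fatty acid hydroxylases, Cyp4a10 was at -3.31 and -0.51 (6.95-fold) and Cyp4a31 at -3.56 and -0.84 (6.59-fold). Another Cyp4a10 probe, above background on all 5 arrays, gave 1.96 on the log2 scale, short of 4-fold. The remaining Cyp4a10 probe, not above background at E13.5, gave at least 5.61. Cyp4a32 was first above background at P0, at -2.39 (at least 11.3-fold). Cyp2e1, which oxidises ethanol and small solvents, was 14.1-fold higher at P0, and Cyp2s1, an enzyme of epithelia, was at 0.37 and 2.38 (4.02-fold).

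These counts against E13.5 moved with the background correction. Under normexp on the local background, whose fit placed the E13.5 background mean at -992 against 20.7 to 27.5 on the other arrays, 3 Cyp genes were higher at P0 (1.73% of all genes were) and 9 lower (18.3%), a share of lower genes near that of all genes. The differences of Cyp2e1 and Cyp2j13 turned to -0.33 and -0.62 on the log2 scale. With normexp fitted on the 153 negative control spots 9 were higher and 0 lower, 16 were higher and 2 lower in the authors' deposited table, and 8 were higher and 0 lower when both arrays had to be above background. The 10 proximal tubule markers, all detected at P0 and 5 of them at E13.5, summed to 0.38 times the 75th percentile intensity at E13.5 and 138 times at P0, and their part in the Cyp counts was not tested.

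Between birth and 8 weeks the Cyp genes showed their widest differences, and each of the 33 that passed 4-fold was higher in the adult. These were 33 of 57 genes compared (8.93% of all genes were higher), with 0 lower (9.35%) and a median difference of 2.43, against 0.07 over all genes. Of family 2, 19 of 30 were higher and of family 4, 11 of 17, with medians of 2.61 and 3.88. All 6 detected Cyp4a genes, 5 of 6 Cyp2j, 5 of 7 Cyp2d and 4 of 8 Cyp2c genes compared were higher. The Cyp2c count was 1 under normexp on the local background and 3 with negative control spots. The proximal tubule markers summed to 138 times the 75th percentile at P0 and 1910 times at 8 weeks, 10 of 10 at least 4-fold higher, and their part in the result was not tested.

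Cyp2a4, a steroid hydroxylase, was at -5.75 at P0 and 7.30 at 8 weeks, an 8449-fold difference and the largest of a Cyp gene in this comparison. It was not well above background on the other 3 arrays. A second probe of the gene was not well above background at P0 and gave a difference of at least 11.71 on the log2 scale, against 13.05 measured with the first. Cyp4b1, which hydroxylates fatty acids and foreign compounds, was not well above background at E13.5 and was at -3.41 at P0, 7.24 at 8 weeks, -1.18 in the 2-week and -0.80 in the 4-week transplant. It was thus 1609-fold higher in the adult than at birth, while the transplants lay between the 2 kidneys. The pseudogene Cyp4b1-ps2 was at -4.12 at E13.5, not above background at P0 and in the 2-week transplant, at -5.43 in the 4-week transplant and at 1.68 at 8 weeks.

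Cyp4a12a and Cyp4a12b, hydroxylases that make vasoactive arachidonic acid products in the kidney of male mice, were at -4.29 and -3.84 at P0 and at 4.11 and 4.70 at 8 weeks. The differences were 336-fold and 372-fold. Neither was above background at E13.5 or in the 2-week transplant, and in the 4-week transplant they were at -5.43 and -5.21. Cyp4a10 was at -3.31 at E13.5, -0.51 at P0, 5.65 at 8 weeks, -2.58 in the 2-week and -2.74 in the 4-week transplant. Cyp4a31 ran close to it, at -3.56, -0.84, 5.32, -2.64 and -3.11 in the same order. They were 71.4-fold and 71.5-fold higher at 8 weeks than at P0, and their levels in both transplants were below those at birth. Cyp4a14, known as a target of the fatty acid sensor PPARα, was not above background at E13.5 or P0, at 2.29 at 8 weeks and at -5.54 and -4.13 in the transplants. Several Cyp4a, Cyp2d and Cyp2j genes are near copies of each other, as Cyp2a4 is of Cyp2a5. The probe sequences are not in the files used here, and how far a probe also reads a neighbouring copy was not tested.

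**Figure D3:**
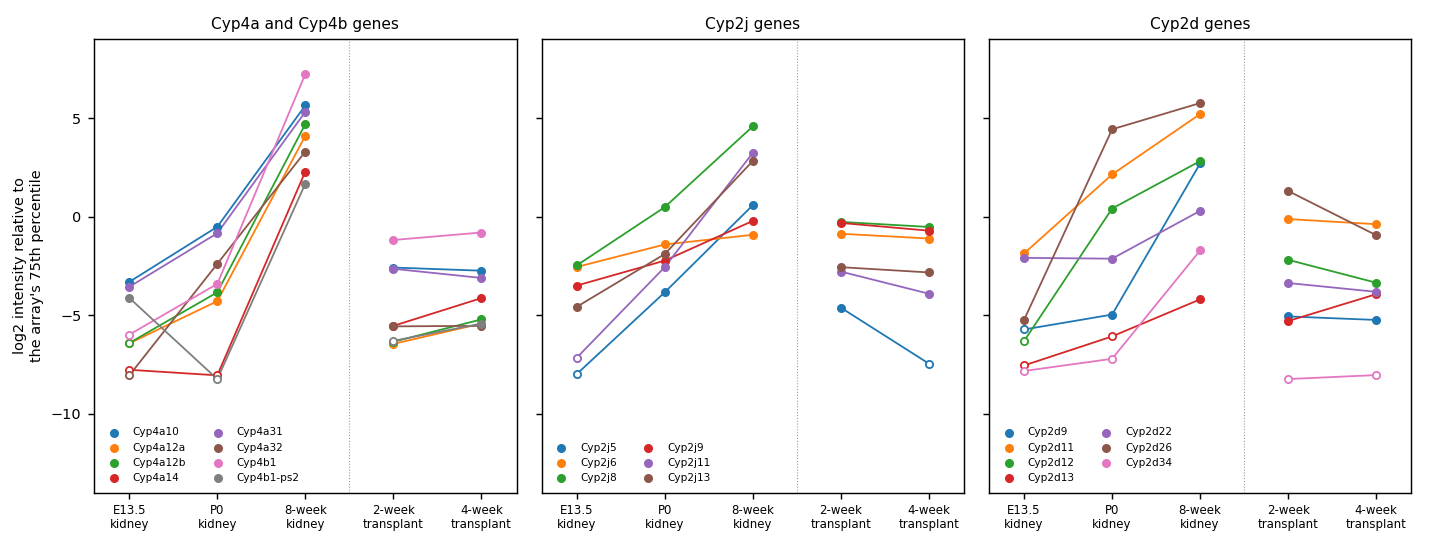
Levels of the detected Cyp4a and Cyp4b genes (left), Cyp2j genes (middle) and Cyp2d genes (right) on each array, in log2 intensity relative to the array's 75th percentile. Each point is 1 array, open points are not well above background, and lines join the kidneys by age and the transplants by time. Most lines climb to their highest point at 8 weeks, and the transplant points lie well below it, with Cyp2j6, Cyp2j9 and Cyp2d13 as the exceptions.

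Of the Cyp2j genes, Cyp2j8 was at 4.58 at 8 weeks against 0.49 at P0 (17.1-fold), Cyp2j11 at 3.24 against -2.56 (55.6-fold) and Cyp2j13 at 2.83 against -1.90 (26.4-fold). All Cyp2j8 values given rest on 1 of its 2 probes, since the other was above background on no array. Cyp2j5 was at 0.58 against -3.84 (21.4-fold), and Cyp2j9 at -0.21 against -2.23 (4.04-fold). Cyp2j6 was at -1.41 at P0 and -0.92 at 8 weeks, less than 4-fold apart. In the transplants Cyp2j9 was at -0.31 and -0.71 and Cyp2j6 at -0.86 and -1.11, close to the adult level, whereas the other 4 Cyp2j genes were 28.8-fold to 64.9-fold lower in the 2-week transplant than in the 8-week kidney. Ephx2, the soluble epoxide hydrolase that opens the epoxides these enzymes make, was at -2.53 at E13.5, -0.31 at P0, 4.96 at 8 weeks, 1.55 in the 2-week and 2.78 in the 4-week transplant.

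In subfamily 2d, Cyp2d9, a steroid hydroxylase of male mouse liver, was not above background at E13.5, at -4.97 at P0, at 2.70 at 8 weeks and at -5.06 and -5.24 in the 2-week and 4-week transplants. Cyp2d11, whose promoter resembles that of Cyp2d9, was at -1.86, 2.15, 5.21, -0.12 and -0.38 in the same order. From P0 to 8 weeks Cyp2d9 was thus 204-fold higher and Cyp2d11 8.37-fold higher, and the level of each was lower in both transplants than in the adult. Cyp2d26 was at 5.77 at 8 weeks, less than 4-fold above its P0 level of 4.44, and lower in both transplants, at 1.31 and -0.94. Cyp2d22 was at 0.30 at 8 weeks and -3.36 and -3.81 in the transplants, below its levels of -2.09 and -2.13 in the younger kidneys. Cyp2d12 was at 2.82 at 8 weeks and at -2.19 and -3.35 in the transplants, and Cyp2d34 was above background only at 8 weeks, at -1.71.

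Among the Cyp2c genes, Cyp2c44, an epoxygenase of the kidney listed in RefSeq as Cyp2c23, was not above background at E13.5 or P0, at 0.62 at 8 weeks and at -4.10 and -4.92 in the transplants. Cyp2c29, Cyp2c67 and Cyp2c68 were above background only at 8 weeks, at -3.38, -2.65 and -2.72. Cyp2c37 and Cyp2c70 were detected on all arrays and stayed within -4.68 to -3.98 and -5.16 to -4.64. Cyp2c38 ranged from -4.19 at E13.5 to -2.49 at 8 weeks. The values of Cyp2c37 and of Cyp2c38 each rest on 1 of 2 probes, since the other was above background on no array. Of 13 Cyp2c genes, 4 (Cyp2c39, Cyp2c50, Cyp2c55 and Cyp2c65) were above background on no array.

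Over the whole interval from E13.5 to 8 weeks, 34 of 56 Cyp genes compared were at least 4-fold higher in the adult (14.1% of all genes were) and 0 lower (12.6%), with a median of 3.06. Of the 34 calls 19 rest on bounds. The arrays lie on different slides, and other counts against the E13.5 array moved with the background correction.

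Compared with the E13.5 kidney, the 2-week transplant had higher levels of Cyp2e1, Cyp2d26, Cyp4v3, Cyp4f18 and several Cyp2j genes. Of 48 genes compared, 14 were at least 4-fold higher (11.3% of all genes were) and 2 lower (5.42%), with a median difference of 0.63 against -0.11 over all genes. Of family 2, 9 of 25 were higher, and of family 4, 3 of 13 were higher and 1 lower. Under normexp on the local background 2 were higher (3.31% of all genes were) and 11 lower (18.1%). Among genes above background on both arrays 8 were higher (8.73%) and 1 lower (5.35%). Cyp2e1 was 210-fold and Cyp2d26 92.9-fold higher in the transplant, and Cyp2j9 was 9.06-fold higher (-3.49 and -0.31). Cyp2j13 passed 4-fold with the probe used (2.01 on the log2 scale). A second Cyp2j13 probe, above background on both arrays, gave -0.33, and the third gave at least 1.02. The 2 lower genes were Cyp51, the lanosterol demethylase of cholesterol synthesis (-0.68 and -2.95, 4.83-fold), and the pseudogene Cyp4b1-ps2 (at least 4.19-fold). In the 4-week transplant 15 of 52 were at least 4-fold higher than at E13.5 (12.7% of all genes were) and 0 lower (6.87%).

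Against the 8-week kidney, both transplants were lower in the Cyp4a, Cyp2d, most Cyp2j and other adult Cyp genes, and higher in a few. In the 2-week transplant 28 of 54 genes compared were at least 4-fold lower (8.67% of all genes were) and 3 higher (11.8%), with a median of -2.37 against -0.01 over all genes. In the 4-week transplant 27 of 55 were lower (7.8%) and 5 higher (11.7%), with a median of -1.83 against 0.00. Of family 2, 17 of 29 and 16 of 30 were lower in the 2-week and 4-week transplants. Of family 4, 9 of 16 were lower in each, and all 6 detected Cyp4a genes were among them, with median differences of -8.55 and -8.64. These comparisons share the 8-week array, so they are given side by side only.

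The largest differences were those of Cyp2a4, which was at least 11464-fold lower in the 2-week and at least 10012-fold lower in the 4-week transplant. Cyp4a32 was at -8.06 and not above background at E13.5, at -2.39 at P0, 3.31 at 8 weeks, -5.57 in the 2-week and -5.54 in the 4-week transplant, 469-fold and 461-fold below the adult. Cyp2d9 was 217-fold and 246-fold lower, and Cyp4b1 343-fold and 264-fold lower. Cyp4a10, Cyp4a32, Cyp2d11, Cyp2d12 and Cyp2d26 were also at least 4-fold lower in both transplants than at birth. In the 2-week transplant 8 of 51 Cyp genes were that much lower than in the P0 kidney (3.37% of all genes were) and 6 higher (6.85%), and in the 4-week transplant 8 of 54 were lower (4.35%) and 12 higher (8.65%). No Cyp gene was 4-fold below all 3 kidneys in either transplant (0.176% and 0.227% of all genes were).

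The proximal tubule markers were lower beside them. All 10 were well above background in both transplants and all 10 were at least 4-fold lower than at 8 weeks in each, and their sum was 20.3 and 13.7 times the 75th percentile in the 2-week and 4-week transplants, against 1910 times in the 8-week kidney. Their part in the Cyp differences was not tested.

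Cyp2e1 was lower than in the adult in both transplants, and nearer to the adult level at 4 weeks. Its levels were -5.25 at E13.5, -1.42 at P0, 7.83 at 8 weeks, 2.47 in the 2-week and 5.71 in the 4-week transplant. It was 41.1-fold lower than the adult at 2 weeks and 4.32-fold lower at 4 weeks, and 9.50-fold higher at 4 than at 2 weeks. A second probe gave 3.29 for that last difference on the log2 scale, against 3.25. Fat also expresses Cyp2e1. The 8 adipocyte markers summed to 1.91 times the 75th percentile at E13.5, 33.3 at P0, 4.73 at 8 weeks, 197 in the 2-week and 495 in the 4-week transplant. In the kidneys these sums are mostly Fabp4, which was at 0.665 at E13.5, 5.03 at P0 and 2.05 at 8 weeks. Adipoq, Cfd and Lep were not above background in any kidney. Fabp4, Lipe and Pparg were above background in all 3 kidneys, Plin1 among the kidneys only at P0 and Cidec only at 8 weeks. The part of fat in the level of Cyp2e1 was not tested.

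**Figure D4:**
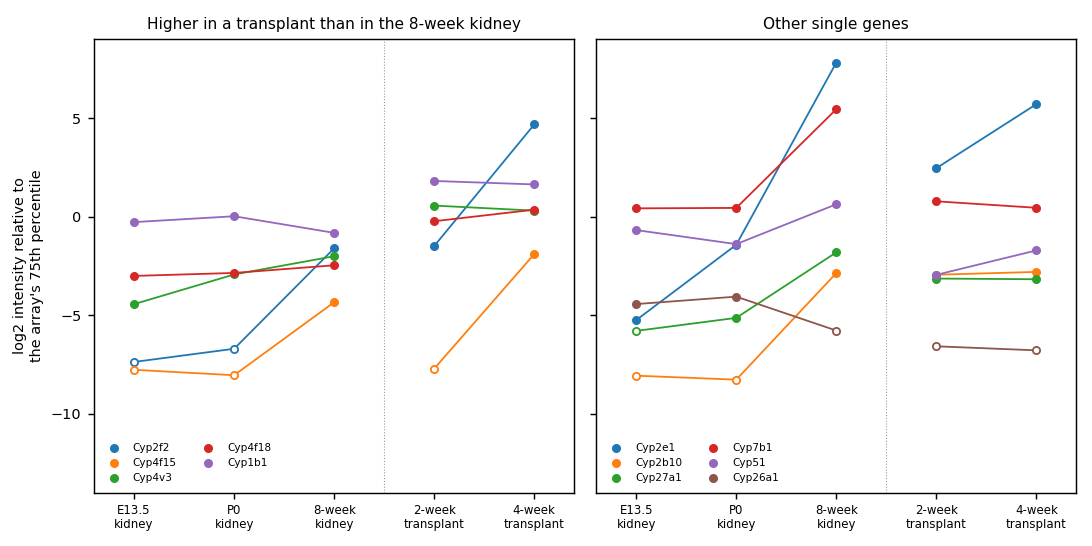
Levels on each array, in log2 intensity relative to the array's 75th percentile, of the Cyp genes at least 4-fold higher in a transplant than in the 8-week kidney (left) and of 6 other Cyp genes (right). Points are single arrays, and open points are not well above background. Cyp2f2 reaches 4.68 in the 4-week transplant against -1.60 in the 8-week kidney, and Cyp2e1 lies between its P0 and 8-week levels in both transplants.

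The Cyp genes that were higher in a transplant than in the adult kidney were Cyp1b1, Cyp4v3 and Cyp4f18 at both times and Cyp2f2 and Cyp4f15 at 4 weeks. Cyp2f2, an enzyme of airway club cells that activates naphthalene, was not above background at E13.5 or P0, at -1.60 at 8 weeks, at -1.49 in the 2-week and at 4.68 in the 4-week transplant. It was 77.9-fold higher in the 4-week transplant than in the 8-week kidney and 71.9-fold higher than in the 2-week transplant. The 4 airway markers summed to 0.0883, 0.225 and 0.0758 times the 75th percentile in the E13.5, P0 and 8-week kidneys and to 0.226 and 0.515 times in the 2-week and 4-week transplants. Foxj1, a factor of ciliated cells, was at -4.07, -2.34, -5.30, -3.01 and -1.16 in the same order, highest in the 4-week transplant, where it was 17.6-fold above the adult. Scgb3a1 was above background only in the transplants, at -3.74 and -4.63. Scgb1a1, the defining secretoglobin of club cells, ranged from -5.66 to -4.82 over the 5 arrays, and Scgb3a2 was above background on none. The part of airway cells in the level of Cyp2f2 was not tested. Cyp4f15, a fatty acid and eicosanoid hydroxylase, was not above background at E13.5, P0 or in the 2-week transplant, at -4.34 at 8 weeks and at -1.90 in the 4-week transplant. The difference was 5.43-fold from the 8-week kidney and at least 19.6-fold from the 2-week transplant.

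Cyp4f18, which inactivates leukotriene B4 in myeloid cells, was at -3.0, -2.85 and -2.47 in the E13.5, P0 and 8-week kidneys and at -0.23 and 0.36 in the 2-week and 4-week transplants. Cyp4v3, the mouse counterpart of the fatty acid hydroxylase altered in Bietti crystalline dystrophy, was at -4.43, -2.93 and -2.0 in the kidneys and at 0.57 and 0.31 in the transplants. With the probes used, both were at least 4-fold above all 3 kidneys in each transplant. The second probe of Cyp4f18, above background on all arrays, passed 4-fold against all 3 in the 4-week transplant but not in the 2-week transplant, where it gave 1.63 against the 8-week and 1.96 against the P0 kidney on the log2 scale. With the mean over probes 2 Cyp genes instead of 3 were higher in the 2-week transplant than at 8 weeks (10.5% of all genes were). In the 2-week transplant they were, by the probes used, the only 2 of the 59 detected Cyp genes that were so (3.38% of all genes were), and in the 4-week transplant there were 4, with Cyp2f2 and Cyp4f15 (4.15%). The 8 macrophage markers summed to 4.02, 6.96 and 14.6 times the 75th percentile in the E13.5, P0 and 8-week kidneys and to 67.4 and 42.8 times in the transplants, 7 of 8 at least 4-fold above the adult in each. Their part was not tested.

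Cyp1b1, an enzyme of mesenchymal cells that oxidises oestrogens and aryl hydrocarbons, was at -0.27, 0.03 and -0.82 in the 3 kidneys by age and at 1.82 and 1.64 in the transplants. It was 6.21-fold and 5.50-fold above the adult. Its relative Cyp1a1 was not above background at E13.5 or P0, at -4.50 at 8 weeks and at -5.57 and -3.80 in the transplants, less than 4-fold from the adult in each. Cyp2b10, known as the main target of the xenobiotic receptor CAR, was not above background at E13.5 or P0 and was at -2.86 at 8 weeks, -2.95 in the 2-week and -2.80 in the 4-week transplant. Its levels in the transplants were thus close to that of the adult. Cyp2d13 was not above background at E13.5 or P0 either, and was at -4.19 at 8 weeks and -5.30 and -3.93 in the transplants, within 4-fold of the adult in each.

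Between the 2-week and the 4-week transplant few Cyp genes differed. Of 50 compared, 4 were at least 4-fold higher at 4 weeks (2.44% of all genes were) and 1 lower (1.02%), and the median was -0.02 against -0.001 over all genes. The counts were 4 higher (2.94% of all genes were) and 2 lower (1.99%) in the authors' deposited table. The 4 higher genes were Cyp2f2, Cyp2e1, Cyp4f15 and Cyp2c54, and the lower gene was Cyp2d26, at 1.31 and -0.94 (4.74-fold). Cyp2c54 was above background only in the 4-week transplant, at -3.53 (at least 6.30-fold), and through 1 of its 3 probes. Only 2 of the 4, Cyp2f2 and Cyp2e1, were above background on both arrays. The 7 adrenal cortex markers were at least 4-fold higher at 4 weeks (7 of 7, with sums of 15.1 and 214 times the 75th percentile), as were the 6 urothelial markers (6 of 6, 0.716 and 55.1 times). Their part in the Cyp differences was not tested.

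Of the remaining family 4 and family 2 genes, Cyp4f17, Cyp4f13, Cyp4f14 and Cyp2r1 were also at least 4-fold higher at 8 weeks than at P0. Cyp4f13 was at -2.17, -1.19, 0.93, -0.82 and -0.59 in the E13.5, P0 and 8-week kidneys and the 2-week and 4-week transplants, and Cyp4f17 at -1.23, -2.13, 0.83, -1.80 and -1.80. From P0 to 8 weeks they differed 4.34-fold and 7.78-fold. Cyp4f14 was first above background in the transplants and the adult, at -4.12, -2.68 and -2.13 in the 2-week transplant, the 4-week transplant and the 8-week kidney, the last at least 14.8-fold above P0. Cyp4f16 stayed within -2.57 to -1.67. Cyp2u1, which hydroxylates long-chain fatty acids, ranged with the probe used from 4.90 in the 4-week transplant to 6.73 at 8 weeks. A second Cyp2u1 probe, above background on all 5 arrays, ranged from -4.22 at E13.5 to -3.39 at 8 weeks, and the third was above background on none. Cyp2s1 ranged from 0.37 at E13.5 to 2.38 at P0. Cyp2r1, a vitamin D hydroxylase, was at -1.04, -1.01, 1.57, -0.53 and 1.08 in the E13.5, P0 and 8-week kidneys and the 2-week and 4-week transplants. Its 6.00-fold difference from P0 to 8 weeks was measured with 1 of 2 probes, since the other was not well above background in either kidney. Cyp3a13, the only Cyp3a gene above background, ranged from -5.23 at P0 to -3.74 in the 4-week transplant and was not above background at 8 weeks.

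Of the sterol enzymes, Cyp7b1, which hydroxylates oxysterols, was at 0.43, 0.45 and 5.46 in the E13.5, P0 and 8-week kidneys and at 0.78 and 0.45 in the transplants. It was 32.2-fold higher at 8 weeks than at birth, and both transplants lay within 2-fold of the younger kidneys. Cyp27a1, the mitochondrial sterol hydroxylase, was not above background at E13.5 and was at -5.13 at P0, -1.81 at 8 weeks, -3.14 in the 2-week and -3.17 in the 4-week transplant. Cyp51 was at -0.68, -1.39 and 0.63 in the kidneys by age and at -2.95 and -1.71 in the transplants, 12.0-fold and 5.08-fold below the adult. Cyp46a1, the cholesterol hydroxylase of the brain, stayed within -2.78 to -2.37. Cyp7a1 and Cyp8b1, which act in bile acid synthesis in the liver, were above background on no array.

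Cyp17a1, a hydroxylase of steroid hormone synthesis, stayed within 2.32 to 2.86 on all 5 arrays, including the 4-week transplant in which the adrenal cortex markers were high. Cyp20a1, an orphan enzyme, stayed within -1.58 to -0.77. Cyp26a1, which degrades retinoic acid, was at -4.43 at E13.5 and -4.06 at P0 and was not above background in the 8-week kidney or the transplants. It was at least 4.38-fold lower in the 2-week transplant than at P0. Its relative Cyp26c1 and the oestrogen-forming enzyme Cyp19a1 were above background on no array. Cyp39a1, an oxysterol hydroxylase, was at 0.87 at P0, -0.57 at 8 weeks, 0.12 in the 2-week and -0.001 in the 4-week transplant, and its single E13.5 spot, at 5.37, was marked as an outlier and not used.

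Genes that serve P450 enzymes were counted in the same way. Of 15 partner genes (electron donors, haem synthesis and breakdown, epoxide hydrolases and the prostanoid P450s Tbxas1 and Ptgis), all 15 were well above background on all 5 arrays. From E13.5 to P0, 3 of 15 were at least 4-fold higher (6.23% of all genes were) and 0 lower (1.83%), but 0 were higher under normexp on the local background (1.73%). From P0 to 8 weeks 5 were higher (8.93%) and 2 lower (9.35%). Against the 8-week kidney 4 were lower (8.67%) and 2 higher (11.8%) in the 2-week transplant, and 2 lower (7.8%) and 3 higher (11.7%) in the 4-week transplant. The 2 higher at 2 weeks are near the share of all genes. Por, the reductase that supplies electrons to microsomal P450s, was at 2.33, 2.49 and 5.71 in the kidneys by age and at 3.19 and 3.96 in the 2-week and 4-week transplants. It was 9.35-fold higher at 8 weeks than at birth, while 5 of the 6 detected Cyp4a genes were 52.0-fold to 372-fold higher and Cyp4a14 at least 317-fold. Its partner Cyb5a was at 4.15, 4.82, 7.71, 4.69 and 5.17 in the same order.

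Fdx1 and Fdxr, which supply electrons to mitochondrial P450s, were 6.32-fold and 14.8-fold higher in the 4-week than in the 2-week transplant. Fdxr was at 0.12, 0.28 and 0.93 in the kidneys and at 0.11 and 4.00 in the transplants. Fdx1 is also on the adrenal cortex list. Ephx1, the microsomal epoxide hydrolase, was at -2.08, 0.89 and 2.53 in the kidneys and at 3.31 and 3.98 in the transplants, 41.9-fold higher in the 2-week transplant than at E13.5. Ptgis, the prostacyclin synthase, was at 1.63, 1.61 and -1.24 in the kidneys and at 2.51 and 2.11 in the transplants, 13.4-fold and 10.2-fold above the adult. Tbxas1, the thromboxane synthase, was 18.7-fold higher in the 2-week transplant than at E13.5.

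**Figure D5:**
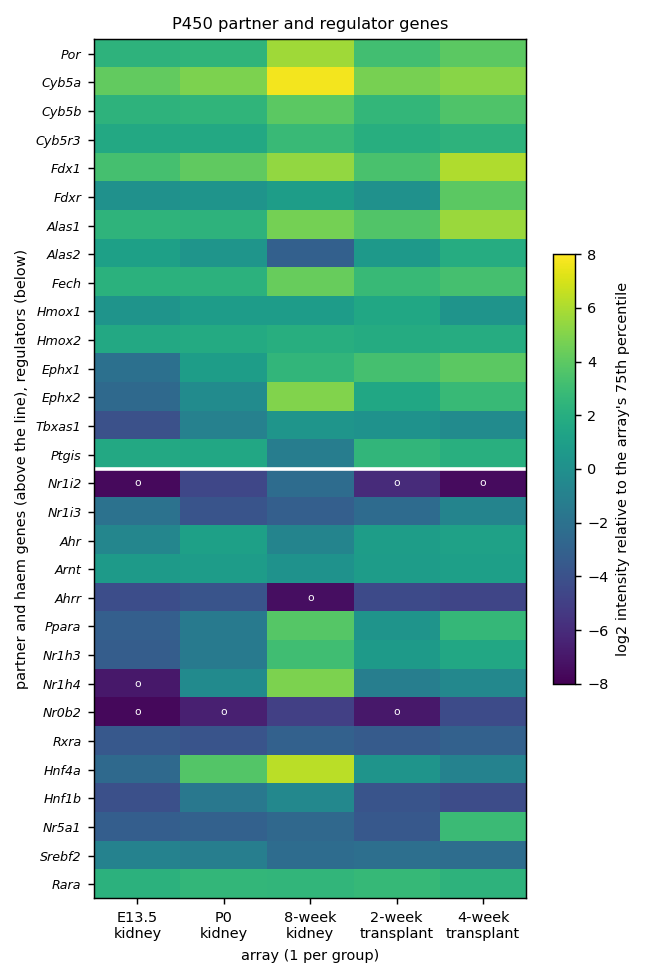
Levels of 15 P450 partner genes (above the white line) and 15 regulator genes (below it) on the 5 arrays, 1 per group. Colour is log2 intensity relative to the array's 75th percentile, and a circle marks a probe not well above background. Hnf4a reads 6.33 in the 8-week kidney and -0.91 in the 4-week transplant, and all 15 partner genes are above background on every array.

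Among 15 regulators of Cyp genes, from E13.5 to P0 3 of 14 compared were at least 4-fold higher (6.23% of all genes were) and from P0 to 8 weeks 5 of 15 (8.93%), with 0 lower in each (1.83% and 9.35%). In the 2-week transplant 4 of 13 were higher than at E13.5 (11.3% of all genes were), and 6 of 15 were lower than at 8 weeks (8.67%), with 0 higher (11.8%). In the 4-week transplant 4 were lower than at 8 weeks (7.8%) and 2 higher (11.7%), Nr1i3 and Nr5a1, the latter count near the share of all genes. Under normexp on the local background the count from E13.5 to P0 was 1 higher (1.73% of all genes were) and 2 lower (18.3%). That from E13.5 to the 2-week transplant was 0 higher (3.31%) and 3 lower (18.1%). Hnf4a, a nuclear receptor of tubule and liver, was at -2.55, 3.71 and 6.33 in the kidneys by age and at 0.30 and -0.91 in the transplants, 65.5-fold and 152-fold below the adult. Ppara, the fatty acid sensor, was at -3.17, -1.42 and 3.77 in the kidneys and at 0.29 and 2.65 in the transplants. Ppara was less than 4-fold below the adult in the 4-week transplant, in which Cyp4a10 was 335-fold and Cyp4a14 86.0-fold below it. These are levels in bulk tissue, and the part of Ppara in the Cyp4a levels was not tested. Nr1i2, the xenobiotic receptor PXR, was above background only at P0 (-4.57) and 8 weeks (-2.35).

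In all, 31 members were above background on no array. They were Cyp1a2, 14 genes of family 2, 7 of the 8 Cyp3a genes, 5 of family 4 (Cyp4a29, Cyp4a30b, Cyp4f37, Cyp4f40 and Cyp4x1) and Cyp7a1, Cyp8b1, Cyp19a1 and Cyp26c1. Since many of these are liver enzymes, 8 hepatocyte markers were read beside them. They summed to 1.63, 2.91 and 7.24 times the 75th percentile in the E13.5, P0 and 8-week kidneys and to 3.92 and 236 times in the 2-week and 4-week transplants. The last sum is mostly Ttr, the transthyretin transcript, which was at 7.86 in the 4-week transplant and -3.40 at 8 weeks (2451-fold). Ahsg was at -3.34 and -3.06 in the transplants and not above background at 8 weeks (at least 4.10-fold and 5.00-fold). Alb, the defining hepatocyte transcript, was not above background at P0 or in either transplant and was at -4.75 at E13.5 and -2.18 at 8 weeks, and Cps1 was above background on no array. Fgb was above background only in the 2-week transplant, at -4.11. Apoa2, Serpina1a and Tat were above background on all 5 arrays, highest at 8 weeks, at 2.39, 0.62 and -3.24. A further 7 Cyp genes were detected on 1 array each. These were Cyp2a12 at E13.5 (-5.34), Cyp2b9 at P0 (-3.92), Cyp2c54 in the 4-week transplant, and Cyp2c29, Cyp2c67, Cyp2c68 and Cyp2d34 at 8 weeks. Low levels were also found for Cyp2t4, which stayed within -5.12 to -4.05 on all arrays, and for Cyp2c66, which was above background at P0 and in the transplants, at -5.50, -5.05 and -5.34. Cyp4f39 was above background at P0, at 8 weeks and in the 4-week transplant (-5.61, -4.69 and -5.67), and the pseudogene Cyp4f41-ps at E13.5 and P0 (-5.06 and -5.76).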

How the data were processed

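Each of the 5 groups, taken from the sample titles, had 1 array. Per the file headers, Agilent Feature Extraction 10.7.3.1 wrote the deposited scanner files, with an intensity for each spot from which it had subtracted the background and a spatial trend, and with flags per spot. The gene table deposited by the authors holds log2 values. A shift to the 75th percentile is named in its title line. The log2 intensity differed by at most 0.01 from 99.5% of its values without that shift (mean over probes, centred on the row's median), and 18.2% with it. The build of the array design in the file headers is mm9, and promoters are those of GRCm38.p6, so no array coordinates are given.

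Levels are log2 ratios of processed intensity to the 75th percentile of the array's 43020 gene spots (1170.2 to 1720.1). Spots with an outlier flag on at least 1 array were dropped, and no Cyp spot was saturated. Log2 values of a probe's spots were averaged, and of several probes (19 Cyp genes) the one brightest on average was used. On a dim side the comparison used the probe's value or, if larger, the array's floor, which is its lowest signal well above background. Where this would have turned the sign the difference was set to 0, and genes dim on both sides were not compared. Bounds enter the medians.

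Genes were named by a rule: the 10 largest differences of at least 4-fold in each direction and comparison among Cyp genes well above background on both arrays, those 4-fold above or below all 3 kidneys in a transplant, and every member of families with under 5 members. Others are given as values by subfamily and were chosen after their values were seen. The members and the gene lists were chosen with earlier results of these data known. Some genes of the regulator list are not reported here. Alternatives were normexp background correction (limma 3.58.1, R 4.3.3, offset 50, on median signals) on the local background or on negative control spots, the mean over probes, the authors' table, quantile normalization, detection required on both arrays and a 2-fold threshold. The steps were tested on simulated data. Counts were made in Python 3.11.15 with pandas 2.3.3.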

Additional observations from a re-analysis of the deposited data

How the results depend on the processing

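Under all 7 alternatives 3 counts over all Cyp genes against the 8-week kidney stayed within 1.5 times of the main value: 20 to 37 Cyp genes were lower in the 2-week transplant (28 in the main analysis), 21 to 30 lower in the 4-week transplant (27), and 23 to 39 higher at 8 weeks than at P0 (33). The shares of all genes ran from 6.62% to 22.5%, 6.24% to 18.6% and 6.5% to 23.6% in the same order, each highest at the 2-fold threshold. Those of the Cyp2c genes alone did not: 4 were higher at 8 weeks than at P0 and 4 lower in the 4-week transplant, against 1 and 1 under normexp on the local background. Counts against the E13.5 kidney moved. Under normexp on the local background, 3 genes were higher and 9 lower at P0 (14 and 0), and 2 higher and 11 lower in the 2-week transplant (14 and 2), and the E13.5 kidney held the highest level of 25 genes (2), the P0 kidney that of 1 (4) and the 4-week transplant that of 2 (9). There the P0 differences of Cyp2e1 and Cyp2j13 turned to -0.33 and -0.62 and that of Cyp2j13 in the 2-week transplant to -1.16. With negative control spots 9 were higher at P0 (4.35% of all genes were) and 1 was lower in the 2-week transplant than at E13.5 (3.66%). With detection on both arrays, fewer genes are compared by construction. Then 8 were higher at P0 (4.65% of all genes were). In the 2-week transplant 8 were higher and 1 lower than at E13.5 (8.73% and 5.35%). Between the transplants 2 were higher at 4 weeks (1.8%), against 4 in the main analysis. With the authors' values 2 were lower at P0 than at E13.5 (2.49% of all genes were) and 2 lower at 8 weeks than at P0 (16.8%). Of the transplant comparisons, 4 were lower in the 2-week transplant than at E13.5 (5.42%) and 2 lower between the transplants at 4 weeks (1.99%). With the same values the 2-week transplant held the highest level of 9 genes, against 4 in the main analysis. At 2-fold, the counts lower were 1 at P0 (11.9% of all genes were), 2 at 8 weeks (20.9%) and 5 in the 2-week transplant against E13.5 (20.3%). In the 4-week against the 2-week transplant 4 were lower (5.68%) and 11 higher (9.09%). Quantile normalization put 4 genes highest at E13.5 (2), and the mean over probes put 2 highest in the 2-week transplant (4) and turned Cyp2r1 in the 2-week transplant against the adult from -2.10 to 0.46, its probes disagreeing. Apart from the E13.5 fit and these constructions, the cause was not tested. The authors' table shifts the median of all genes to -0.46 at 8 weeks against P0 (0.07), 0.50 and 0.36 in the transplants against 8 weeks (-0.01 and 0) and -0.19 between the transplants. No single gene past 4-fold turned its direction other than those named.

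No paired analysis was possible because each group holds 1 array, which also leaves slide without a fit and no array to leave out. Many Cyp probes are near background, so that 6 of 14 calls at P0 and 10 of 33 at 8 weeks rest on bounds.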

Other observations

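Of the 19 members with several probes, 13 had at least 2 that were well above background on some array, so that their probes could be compared. Both probes of Cyp2e1 were higher at 8 weeks than at P0, by 9.25 and 9.67 on the log2 scale, and both placed the 4-week above the 2-week transplant. The probes of Cyp2r1 differed in the 2-week transplant against the 8-week kidney. The probe used gave -2.10, and the second, not well above background at 8 weeks, gave at least 1.53 in the opposite direction. The probes of Cyp2j13 differed in the 2-week transplant against the E13.5 kidney, at 2.01 with the probe used and -0.33 with a second.

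Cyp39a1 is the only member without a usable probe. In the authors' deposited table, where the outlier spot was kept, it was at 5.17 at E13.5, 0.77 at P0, 0.00 in the 2-week transplant, -0.30 in the 4-week transplant and -1.23 at 8 weeks, on a log2 scale centred on the gene's median. Whether the E13.5 value is real cannot be told from 1 spot on 1 array.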
